A study of Mus musculus with 20 samples.

Results

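The amounts of 10 genes that encode regulators of neuronal alternative splicing were followed in whole brains of mice lacking Katnal2 and of wild-type mice. They were chosen by name as known regulators of this kind: the Rbfox proteins Rbfox1, Rbfox2 and Rbfox3, the Nova proteins Nova1 and Nova2, the polypyrimidine tract binding proteins Ptbp1 and Ptbp2, the microexon regulator Srrm4, the CELF protein Celf4 and the ELAV-like protein Elavl2. All 10 were among the 19463 genes of the deposited table, and all 10 passed the filter on low values in each comparison. The mice were males on the C57BL/6J background at 3 weeks (postnatal day 21, P21) or 10 weeks (P70) of age, with 5 Katnal2-KO (KO) and 5 wild-type (WT) mice at each age and 20 mice in all. The KO mice descended from a EUCOMM tm1a allele that was passed through a Flp line and whose conditional form was then deleted by treating early embryos with purified cell-permeable Cre protein, so the deletion was present in all tissues and not in a chosen cell type. The WT mice carried no engineered allele in the labels. Values are DESeq2-normalised counts from poly(A) RNA-seq of 1 whole brain per library. In such bulk samples fewer cells of a type and less RNA per cell cannot be told apart.

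Most genes with several exons give rise to more than 1 mRNA, and the choice of exons differs between neurons and other cells. RNA-binding proteins set this choice by binding short motifs in or near an exon, where a single protein can favour inclusion on one side of the exon and skipping on the other. Precursor cells rely on Ptbp1, which represses many neuronal exons; neurons lose Ptbp1, gain its paralog Ptbp2, and then come to rely on Nova, Rbfox, CELF and ELAV-like proteins and on Srrm4, which promotes the inclusion of very short exons. Rbfox3 is also known as the neuronal nuclear antigen NeuN.

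Ptbp1 and Ptbp2 share a short exon whose skipping shifts the reading frame, and it is shown here because the account below sets the amounts of these paralogs against each other. Each exon has 34 bases, which leaves a remainder of 1 on division by 3. In Ptbp1 it is exon 9 of transcript Ptbp1-202, a coding exon at chr10:79862014-79862047 on the plus strand of GRCm38, and in Ptbp2 it is exon 10 of transcript Ptbp2-201, at chr3:119724612-119724645 on the minus strand. Capitals mark the 8 of 34 positions at which the paralogs differ.
Ptbp1: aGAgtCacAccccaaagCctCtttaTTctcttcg
Ptbp2: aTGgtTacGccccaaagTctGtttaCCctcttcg
In the GENCODE M21 annotation 5 of 16 Ptbp1 transcripts and 3 of 13 Ptbp2 transcripts held the exon, and it was absent from each of the 3 Ptbp1 and 2 Ptbp2 transcripts annotated as targets of nonsense-mediated decay. The deposited values are sums over the transcripts of a gene, so they do not measure how often the exon was included.

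Depth, read from the step size of low values, was about 23700000 to 35600000 reads per mouse, with medians of 34700000 and 31200000 in P21 WT and KO mice and of 24500000 in each P70 group. The lowest member of each mouse rested on reads that gave a counting error of 2.9% to 3.4%. This was Ptbp1 in every mouse but the P70 KO replicate 5 mouse, where Elavl2 (1127.9) lay below Ptbp1 (1159.9). Katnal2 was lower in all 5 P21 KO mice (78.1 to 96.0) than in all 5 P21 WT mice (99.3 to 115), a log2 difference of -0.27 (SE 0.10) that was not past the threshold in limma (adjusted p = 1.0), and at P70 the groups overlapped (-0.21, SE 0.13). A whole-gene count does not check an exon deletion. The replicate 5 mice of both genotypes at P70 stood apart from the other 8 P70 mice over much of the table, so age and P70 results are given with and without them. Of the neuronal markers used to check the tissue, the summed level of 8 genes of mature neurons ran from 165674 to 182212 in all 20 mice.

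Levels of different genes can be set side by side only per length. Per kilobase of merged exons, the P21 WT level was highest for Celf4 (1324 ± 36.9 normalised counts per kb, SD, n = 5), followed by Rbfox1 (1236 ± 52.2), Rbfox3 (1202 ± 42.4) and Rbfox2 (979 ± 85.2). The other 6 regulators lay well below these 4, from Nova2 (282.5 ± 18.2) and Ptbp2 (281 ± 13.8) through Elavl2 (246 ± 18.0) and Nova1 (241 ± 9.16) down to Ptbp1 (199 ± 6.71) and Srrm4 (180 ± 20.5). Neighbours whose mice overlapped were Rbfox1 and Rbfox3, the run Nova2, Ptbp2, Elavl2 and Nova1, and Ptbp1 and Srrm4; Celf4, Rbfox2 and the step from Nova1 to Ptbp1 were separated from their neighbours in all mice. Against all genes of the table these per-kilobase levels ranked from the 65.7th percentile (Srrm4) to the 95.7th (Celf4). By the length of the longest protein-coding transcript Celf4 stayed first and Srrm4 last, while Nova2 moved from rank 5 to rank 9.

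Most members are long genes. Rbfox1 spans 1526 kb (chr16:5885355-7411526, plus strand, GRCm38), longer than 99.9% of the genes of the table, whose median span was 18805 bases. Rbfox3 spans 422 kb (chr11:118489762-118911597), Celf4 277 kb, Rbfox2 228 kb (chr15:77078990-77307004), Srrm4 153 kb (chr5:116439275-116591817), Elavl2 150.0 kb (chr4:91250763-91400785), Nova1 124 kb (chr12:46694517-46818929) and Ptbp2 65.7 kb (chr3:119718742-119784466), all on the minus strand. Nova2 (39.4 kb, chr7:18925888-18965319) and Ptbp1 (10.3 kb, chr10:79854427-79864771) are the shortest, both on the plus strand. These 2 were also the members that share most sequence with other genes: 34.7% of the 31-base words of the longest Ptbp1 transcript occurred in transcripts of other genes, more in Gm4900 than in any other, and 31.01% of those of Nova2, nearly all in Gm26821. The way Salmon shared reads among such copies can move the values of Ptbp1 and Nova2; for the other 8 members the share was at most 1.01%.

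Replicate 5 at P70 bore on the regulators very unevenly. In the replicate 5 pair, 7 of 10 members lay below all 8 other P70 mice (Rbfox1, Rbfox2, Nova1, Ptbp2, Srrm4, Celf4 and Elavl2), Rbfox3 lay above all 8, and Nova2 and Ptbp1 lay within their range. Over all 17637 genes tested, 26.2% lay below and 26.8% above. The mean log2 deviation of the pair was -0.76 for Elavl2, -0.65 for Rbfox1, -0.60 for Ptbp2, -0.48 for Nova1, -0.43 for Rbfox2, -0.34 for Celf4, -0.33 for Srrm4, -0.01 for Nova2, 0.07 for Ptbp1 and 0.26 for Rbfox3. These deviations followed the GC content of the members' transcripts, from 38.5% in Elavl2 and Nova1 to 58.6% in Rbfox3: Spearman's rho was 0.93 over the 10 members and 0.65 over 17623 genes, across genes that share the same 2 libraries and are not independent. With transcript length rho was 0.05 over the members and -0.42 over all genes. Among cell type markers, the pair lay above the other 8 mice for 3 of 4 genes of choroid plexus and 3 of 6 of oligodendrocytes (1 below), and below them for 3 of 6 of astrocytes (2 above). The part of base composition or of RNA from these cell types in the deviations was not tested.

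**Figure D1:**
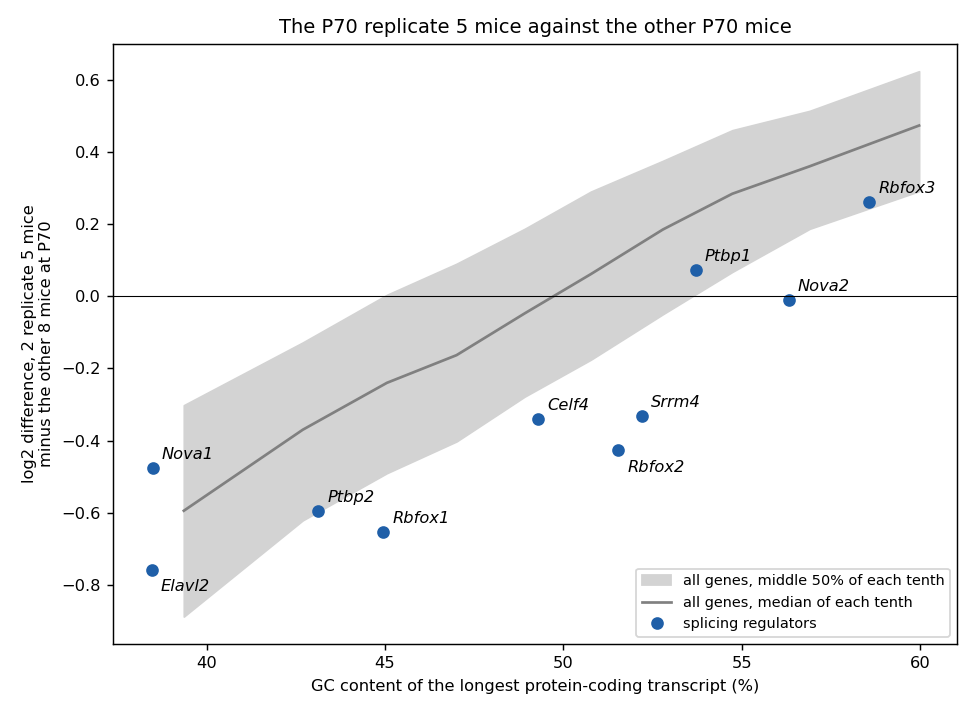
Mean log2 difference of the P70 replicate 5 mice from the other 8 P70 mice (y axis) against transcript GC content in percent (x axis). Blue points are the 10 regulators; the line joins the medians of 10 equal bins of all genes, from -0.59 in the bin of lowest GC to 0.47 in that of highest GC, and the band holds the middle 50% of each bin. Elavl2 (-0.76) and Rbfox3 (0.26) mark the ends among the regulators.

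The genotype comparison asks whether loss of Katnal2 changed the amount of these regulators. At P21 and at P70 none of the 10 regulators passed the threshold (limma on log2(value + 1), Benjamini-Hochberg adjusted p under 0.05 over all genes tested), and none reached an unadjusted p under 0.05. The background was the same: 0% of 17610 genes were called at P21 and 0% of 17613 at P70, with 429 and 199 genes at an unadjusted p under 0.05. Among the regulators KO and WT values overlapped at each age, also without the replicate 5 mice; over all genes the values did not overlap for 0.46% at P21, 0.193% at P70 and 2.12% at P70 without replicate 5. Without replicate 5, 1 of 17650 genes (0.00567%) was called at P70, and it was not a regulator.

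At P21 the interval of the genotype difference was narrow for every member, and all 10 intervals lay between -0.18 and 0.24 on the log2 scale. Srrm4 had the largest positive difference, 0.07 (95% CI -0.09 to 0.24), or 5.28%, and Nova1 the largest negative one, -0.06 (-0.18 to 0.06). Celf4, at -0.01 (-0.10 to 0.08), and Rbfox3, at 0.00 (-0.09 to 0.10), had the tightest intervals. A change larger than these bounds would lie outside the 95% interval, and smaller changes are not excluded.

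At P70 the intervals were wider. Elavl2, which binds AU- and U-rich RNA and takes part in the stability and splicing of neuronal mRNAs, differed by -0.11 (95% CI -0.52 to 0.30), and Rbfox1 by -0.09 (-0.45 to 0.27). Without replicate 5 the Elavl2 difference was -0.11 (-0.23 to 0.01, unadjusted p = 0.0712, adjusted p = 1.0, limma) and that of Rbfox1 -0.06 (-0.15 to 0.04). Elavl2 was 2047, 2003, 2125, 2124 and 1234 in P70 WT mice and 2121, 1902, 1835, 1840.0 and 1128 in P70 KO mice, so its groups overlapped through the KO replicate 1 mouse as well as through replicate 5. Adjusted p-values of the members lay between 0.988 and 1.0 at P21 and between 0.928 and 1.0 at P70 under the alternatives run.

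**Figure D2:**
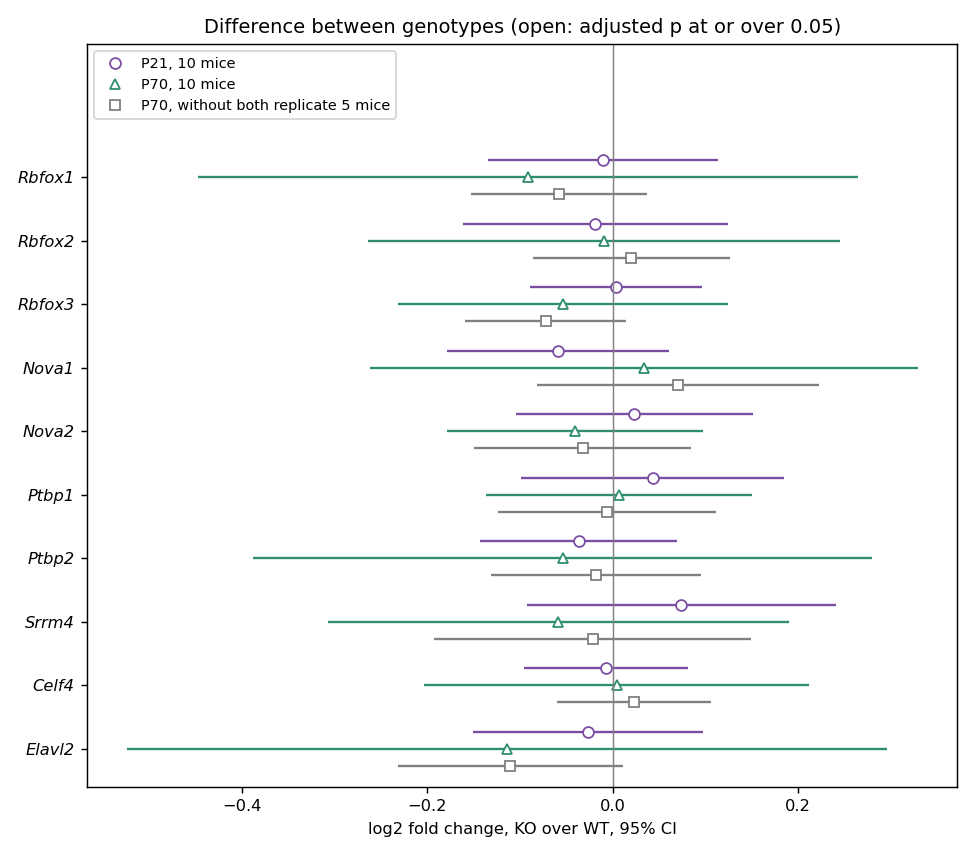
Log2 fold change of KO over WT (x axis) with its 95% confidence interval for each regulator (rows), at P21 (circles, 10 mice), at P70 (triangles, 10 mice) and at P70 without both replicate 5 mice (squares). All marks are open because no adjusted p was under 0.05; every interval holds 0, and that of Elavl2 at P70 is the widest (-0.52 to 0.30).

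The comparison of ages asks how the regulators changed between weaning and adulthood. Nova2 rose in both genotypes, by 23.6% in WT and 18.2% in KO brains, and Srrm4 rose by 25.9% in WT brains; no regulator fell past the threshold. The 2 calls in WT mice stand against 4.62% of 17630 genes called higher (9.32% called in either direction), and the 1 call in KO mice against 3.78% of 17641 genes called higher (8.32% in either direction). Without replicate 5, 5 members were called higher in WT mice (Rbfox2, Nova2, Ptbp1, Srrm4 and Celf4) and 4 in KO mice (Rbfox2, Nova2, Srrm4 and Celf4), where the shares of all genes called higher were 8.89% and 10.6% (17% and 21.3% in either direction). The median log2 change of the 10 members was 0.13 in WT and 0.10 in KO mice, against 0.00 and -0.01 over all genes tested, and 0.15 and 0.14 without replicate 5.

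Counted without a model, all P70 values lay above all P21 values for Rbfox3, Nova2 and Ptbp1 in WT mice and for Nova2 in KO mice, while 5.2% and 5.4% of all genes did so. Without replicate 5 this held for 6 members in WT mice (Rbfox2, Rbfox3, Nova2, Ptbp1, Srrm4 and Celf4; 9.39% of all genes) and for 4 in KO mice (Rbfox2, Nova2, Srrm4 and Celf4; 10.5%). P21 libraries were deeper in the median than P70 libraries (26000000 to 35600000 against 23700000 to 26900000 reads). The ranges overlapped only through P70 replicate 5, the deepest P70 library of each genotype (26100000 reads in WT, 26900000 in KO mice). These lay above the shallowest P21 KO library (26000000 reads), and all other P70 libraries lay below every P21 library. Depth thus separated the ages without replicate 5, and in WT mice also with it (27100000 reads or more at P21). The part of depth in the age changes was not tested, and the labels do not say whether the ages were sequenced together.

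**Figure D3:**
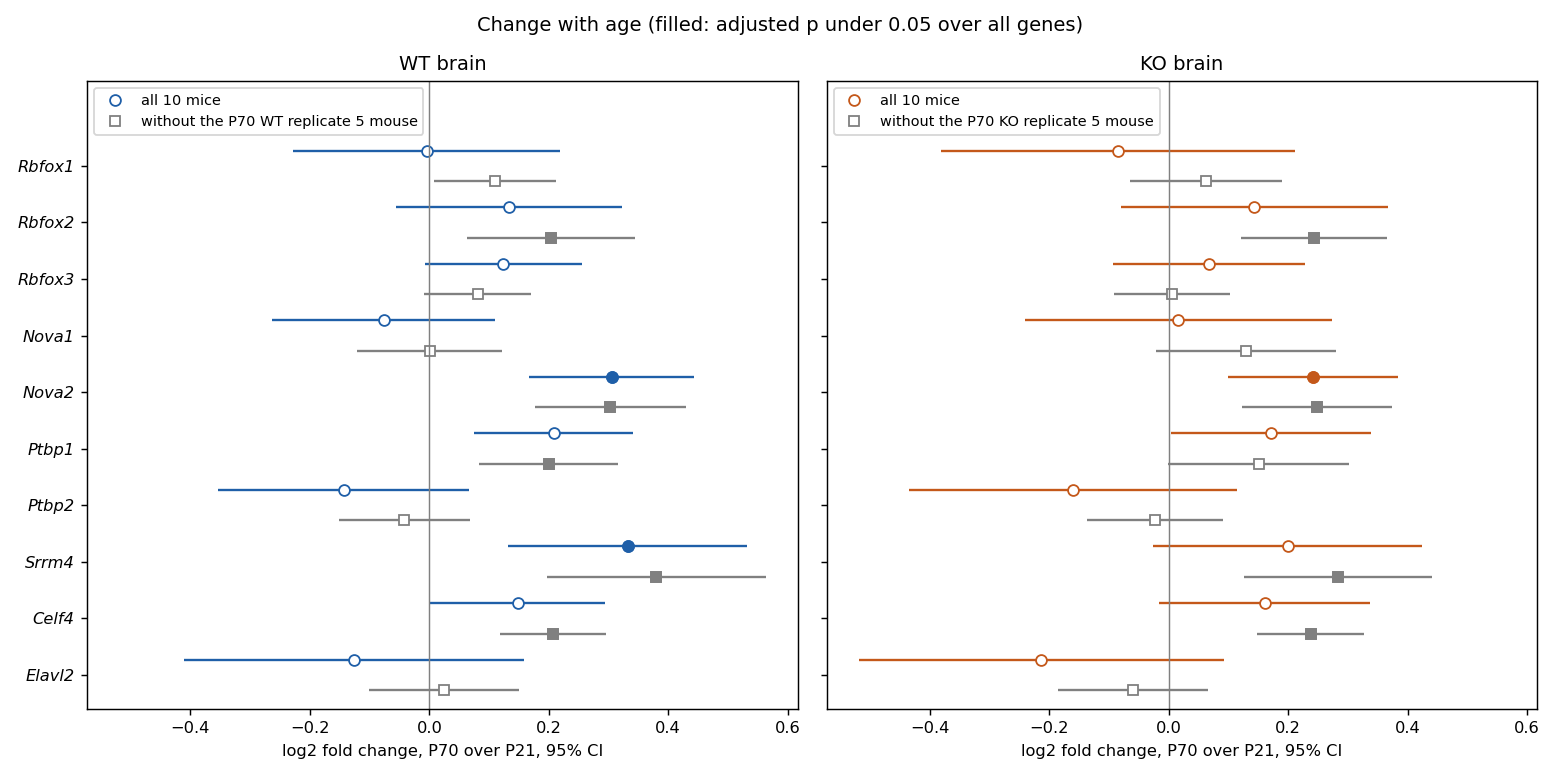
Log2 fold change of P70 over P21 (x axis) with its 95% confidence interval for each regulator (rows) in WT (left) and KO brains (right), from all 10 mice (circles) and without the P70 replicate 5 mouse of that genotype (squares). Filled marks have an adjusted p under 0.05: Nova2 in all 4 fits, Srrm4 in 3, Rbfox2 and Celf4 only without replicate 5, and Ptbp1 only in WT without replicate 5.

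Nova1 and Nova2 bind clusters of short pyrimidine-flanked motifs and regulate exons of synaptic proteins. In WT mice Nova2 was 2429, 2420.5, 2167, 2258 and 2551 at P21 and 2789, 3076, 2778, 3026 and 2934 at P70. In KO mice Nova2 was 2344, 2339, 2278, 2714 and 2349 at P21 and 2905, 2741, 2725, 3036 and 2786 at P70. Every P70 mouse lay above every P21 mouse of its genotype, and the replicate 5 mice lay inside the P70 range. The log2 change was 0.31 (SE 0.06, 95% CI 0.17 to 0.44, limma adjusted p = 0.0101) in WT mice and 0.24 (SE 0.07, 0.10 to 0.38, adjusted p = 0.0412) in KO mice. The WT call held under all 21 alternatives (adjusted p = 0.00174 to 0.0374). The KO call was lost when any mouse other than the P21 replicate 4 and P70 replicate 5 mice was left out (log2 0.22 to 0.26, adjusted p up to 0.105).

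Nova1 was not called with age. Its values were 2051, 2046, 2055, 2226 and 2152 in P21 WT mice and 2154, 1901, 2218, 2163 and 1612 in P70 WT mice. For KO mice they were 2088, 1842, 1885, 2124 and 2186 at P21 and 2461, 2272, 2121, 2013 and 1491 at P70. The groups overlapped in both genotypes, with a log2 change of -0.08 (95% CI -0.26 to 0.11) in WT and 0.02 (-0.24 to 0.27) in KO mice, neither past the threshold. Without replicate 5 these were 0.00 (-0.12 to 0.12) and 0.13 (-0.02 to 0.28).

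Srrm4, a serine- and arginine-rich protein needed for neuronal microexons, was the other member called with all mice. In WT mice Srrm4 was 1751, 1656, 1276, 1539 and 1577 at P21 and 1994, 2234, 1888, 1972 and 1710.1 at P70. In KO mice Srrm4 was 1672, 1579.7, 1490.0, 1699 and 1735 at P21 and 2279.5, 2019.7, 1755, 1934 and 1482 at P70. The WT groups overlapped only through the P70 replicate 5 mouse (1710), which lay below the highest P21 mouse (1751), and the P21 replicate 3 mouse was the lowest of all. The change was 0.33 (SE 0.09, 95% CI 0.13 to 0.53, limma adjusted p = 0.0399) in WT mice and 0.20 (-0.03 to 0.42, adjusted p = 0.282) in KO mice. Without replicate 5 it was 0.38 (adjusted p = 0.00926) and 0.28 (adjusted p = 0.0151). Leaving out any mouse other than the P21 replicate 1 and P70 replicate 5 mice lost the WT call, with log2 changes of 0.26 to 0.36 and adjusted p-values of up to 0.101.

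Nova2 and Srrm4 were the members called higher in WT mice with all 10 libraries. The sequences just before their starts are given from RefSeq (GRCm38.p6). Promoter windows were taken for 8 of 10 members. CG dinucleotides, which read the same on both strands and are where DNA methylation occurs in most cells, are in capitals; 92.1% of 32851 windows of 250 bases held at least 1.
Nova2 (chr7:18925638-18925887, plus strand): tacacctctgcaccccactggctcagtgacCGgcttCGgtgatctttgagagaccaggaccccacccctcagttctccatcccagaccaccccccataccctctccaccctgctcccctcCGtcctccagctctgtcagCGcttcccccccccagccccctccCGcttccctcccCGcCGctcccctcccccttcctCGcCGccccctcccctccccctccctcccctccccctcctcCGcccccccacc
Srrm4 (chr5:116591818-116592067, minus strand): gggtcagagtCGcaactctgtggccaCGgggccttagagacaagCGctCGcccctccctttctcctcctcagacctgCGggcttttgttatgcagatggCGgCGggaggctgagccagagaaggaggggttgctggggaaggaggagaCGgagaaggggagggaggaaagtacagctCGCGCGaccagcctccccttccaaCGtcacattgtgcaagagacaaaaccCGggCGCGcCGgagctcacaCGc
The Nova2 window had 10 CG dinucleotides at a GC content of 71.2%, an observed to expected ratio of 0.563 that ranked at the 63.6th percentile of all windows. In the Srrm4 window there were 17 at a GC content of 63.2%, a ratio of 0.688 at the 72.4th percentile, and the median over all windows was 0.373. RNA-seq values do not show what is bound or methylated at these sequences.

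Ptbp1, which represses neuronal exons and is also made by glial and vascular cells, was higher at P70 in every WT mouse. In WT mice Ptbp1 was 968, 916, 971, 955 and 901 at P21 and 1129, 1101, 1027, 1072 and 1112 at P70. In KO mice Ptbp1 was 914, 1044, 899, 904 and 1109 at P21 and 1117, 1038, 1079, 1076 and 1159.9 at P70. The WT groups did not overlap, while in KO mice the P21 replicates 2 and 5 reached the P70 range. The change was 0.21 in WT mice (SE 0.06, 95% CI 0.07 to 0.34), just short of the threshold (limma adjusted p = 0.0519), and 0.17 in KO mice (0.00 to 0.34, adjusted p = 0.210). Without the P70 replicate 5 mouse the WT change was 0.20 and was called (adjusted p = 0.0232), whereas the KO change of 0.15 was not (adjusted p = 0.151).

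Ptbp2, the neuronal paralog, was not called with age. In WT mice Ptbp2 was 2454, 2707, 2502, 2719.7 and 2499 at P21 and 2373, 2568, 2566, 2498 and 1760.2 at P70. In KO mice Ptbp2 was 2535, 2517, 2368, 2705 and 2432 at P21 and 2676, 2404, 2365, 2439.9 and 1536 at P70. The lowest values were those of P70 replicate 5 in both genotypes, and the other P70 mice lay largely within the P21 range. The log2 change was -0.14 (95% CI -0.35 to 0.07) in WT and -0.16 (-0.44 to 0.11) in KO mice, and without replicate 5 -0.04 (-0.15 to 0.07) and -0.02 (-0.14 to 0.09), none past the threshold.

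The Rbfox proteins bind the motif UGCAUG and act on exons in neurons, heart and muscle. Rbfox2, the most widely expressed of them, was 8279.9, 8521, 6782, 8307 and 7937 in P21 WT mice and 9259, 9361, 8585, 9409 and 7156 in P70 WT mice. Its values in KO mice were 7916, 7729, 7023, 8252 and 8335 at P21 and 9749, 9321, 8586, 9488 and 6558 at P70. All P70 mice but replicate 5 lay above all P21 mice of their genotype. With all mice the change was 0.13 (95% CI -0.06 to 0.32, limma adjusted p = 0.381) in WT and 0.14 (-0.08 to 0.37, adjusted p = 0.457) in KO mice. Without replicate 5 it was 0.20 (adjusted p = 0.0479) and 0.24 (adjusted p = 0.00864) and past the threshold in both, so the call for Rbfox2 turned on 1 mouse in each genotype.

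Rbfox1, which acts on exons of ion channels and synaptic genes, had no call in any of these fits. It was 5471, 5542, 5034, 5575 and 5567 in P21 WT mice and 5552, 6063, 5871, 5975 and 3947 in P70 WT mice. KO values were 5684, 5386, 4679, 5750.3 and 5544 at P21 and 5829.8, 5575, 5397, 5735 and 3375 at P70. Replicate 5 was the lowest P70 mouse in both genotypes by a wide margin, and the other mice of the ages overlapped. The change was 0.00 (95% CI -0.23 to 0.22) in WT and -0.09 (-0.38 to 0.21) in KO mice, and 0.11 (0.01 to 0.21, adjusted p = 0.133) and 0.06 (-0.07 to 0.19) without replicate 5.

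Rbfox3 (NeuN) was the member for which replicate 5 lay at the top. In WT mice Rbfox3 was 7224, 7277, 6854, 6700.5 and 6924 at P21 and 7292, 7487, 7445, 7365 and 8588 at P70. In KO mice Rbfox3 was 7310.2, 6945, 6603, 7333 and 6886 at P21 and 7012, 7103, 6688, 7355 and 8708 at P70. The WT ages did not overlap, the lowest P70 mouse (7292) lying just above the highest P21 mouse (7277), and the KO ages did. The change was 0.12 (95% CI -0.01 to 0.26, adjusted p = 0.230) in WT and 0.07 (-0.09 to 0.23) in KO mice, not past the threshold with or without replicate 5.

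Celf4, which binds many synaptic mRNAs in excitatory neurons, was 11476, 11619.9, 11144, 10918 and 11640.0 in P21 WT mice and 13403, 13462, 12686, 12904 and 10694 in P70 WT mice. KO mice had 10975, 11473, 10674, 11635 and 11767 at P21 and 13137, 13053, 13265, 13846 and 10180.3 at P70. In each genotype 4 of 5 P70 mice lay above all P21 mice and replicate 5 lay below all of them. The change was 0.15 (95% CI 0.00 to 0.29, limma adjusted p = 0.198) in WT and 0.16 (-0.02 to 0.34, adjusted p = 0.271) in KO mice. Without replicate 5 it was 0.21 (adjusted p = 0.00490) and 0.24 (adjusted p = 0.00156), past the threshold in both genotypes.

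Elavl2 was 1946, 1964, 1929, 2284 and 2098 in P21 WT mice and 1994, 1911, 1893, 2153 and 2075 in P21 KO mice, beside the P70 values given above. The 2 lowest of all 20 mice were the P70 replicate 5 mice, and the other P70 mice overlapped the P21 range in both genotypes. Its change was -0.13 (95% CI -0.41 to 0.16) in WT and -0.21 (-0.52 to 0.09) in KO mice, and 0.02 (-0.10 to 0.15) and -0.06 (-0.19 to 0.07) without replicate 5, none past the threshold.

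**Figure D4:**
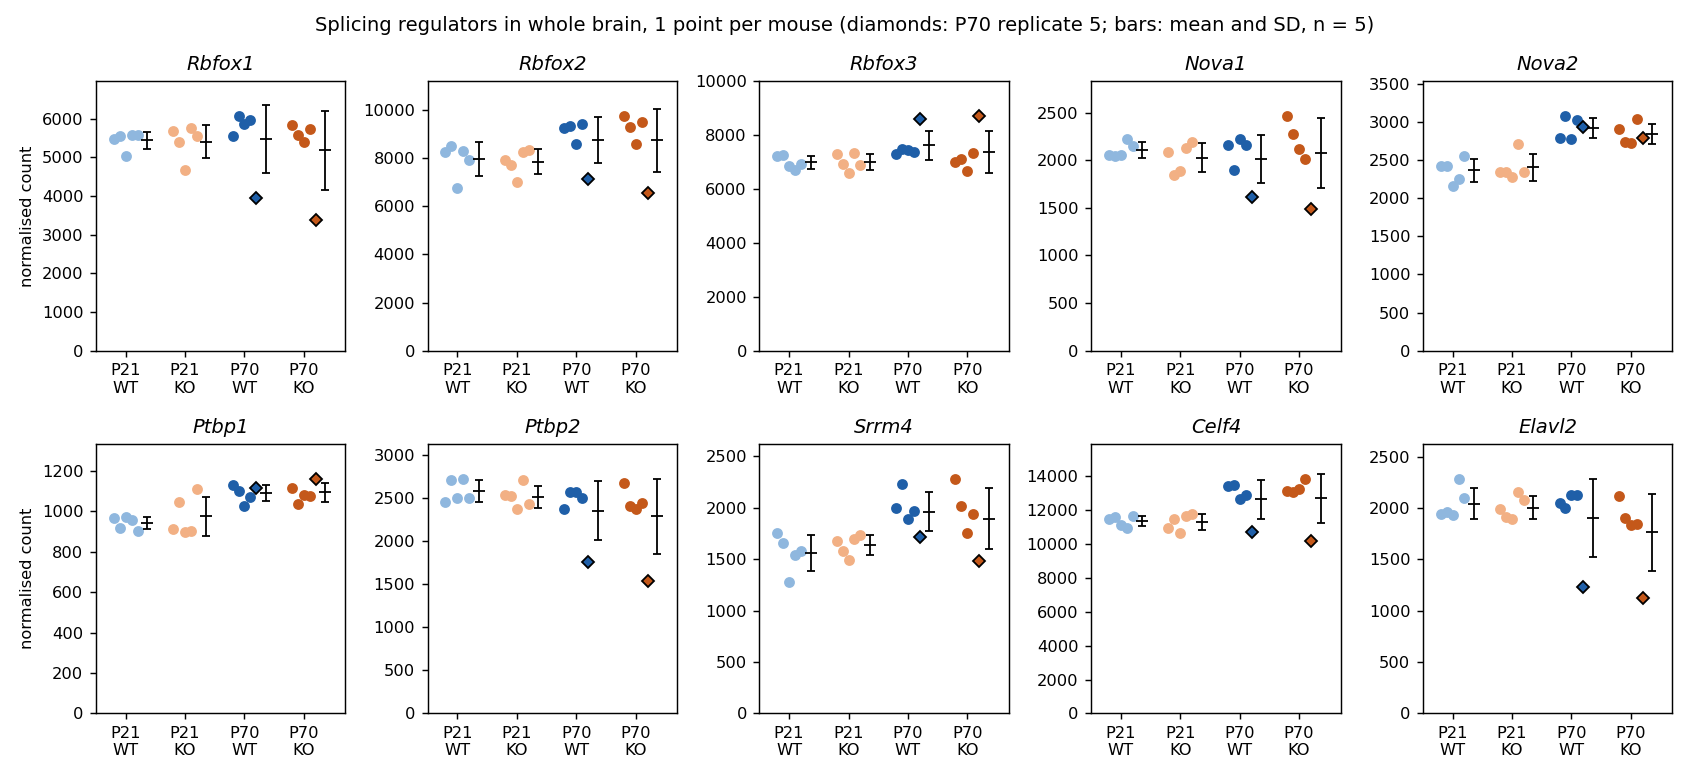
Normalised counts of each regulator (y axis, linear from 0) in the 4 groups of 5 mice, 1 point per mouse, with the mean and SD beside each group. Diamonds are the P70 replicate 5 mice, which are lowest at P70 in both genotypes for 7 regulators and highest for Rbfox3 (8588 and 8708).

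A correction for transcript GC content and length was added after the data were seen, with all mice kept. From each mouse it subtracted a smooth trend on both properties, fitted to the deviations of log2 values from each gene's mean over the fit. The correction also removes any part of an age difference that follows these properties. It left 4 members called higher in WT mice and 3 in KO mice, where 8.94% and 9.66% of all genes were called higher. In WT mice these were Nova2 (0.22, adjusted p = 0.00848), Srrm4 (0.31, adjusted p = 0.00523), Ptbp1 (0.20, adjusted p = 0.0246) and Celf4 (0.17, adjusted p = 0.0464). In KO mice Nova2 (0.20, adjusted p = 0.0104), Celf4 (0.20, adjusted p = 0.0273) and Srrm4 (0.23, adjusted p = 0.0494) were called, all by limma. Elavl2 was lower in KO mice after the correction, just short of the threshold (-0.14, SE 0.05, limma adjusted p = 0.0501). In WT mice its corrected change was -0.06 (limma adjusted p = 0.539).

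Markers of several cell types moved with age too. All 6 oligodendrocyte markers fell in both genotypes, with a summed level between 379118 and 558363 at P21 and between 144591 and 191620 at P70. In WT mice 3 of 6 immature neuron markers (Dcx, Sox4 and Igfbpl1), 2 of 4 of dividing cells, 2 of 3 of oligodendrocyte precursors and all 3 of blood fell; in KO mice the counts were 2, 3, 2 and 2. Of 8 mature neuron markers Snap25 rose in both genotypes and Slc17a7 fell in WT mice. Their summed level was 168106 to 171089 at P21 and 171295 to 182212 at P70 in WT mice. In KO mice it was 165674 to 172644 at P21 and 171729 to 181052 at P70. Only 2 of the 8 had a positive log2 change in each genotype, with a median of -0.022 in WT and -0.035 in KO mice. None of the astrocyte, microglia or endothelial markers passed the threshold, and 1 of 4 choroid plexus markers (Kl) rose in WT mice. The part of these cell types in the age changes of the regulators was not tested.

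Whether the age change differed between genotypes was tested as an interaction over all 20 mice. None of the 10 regulators passed the threshold, and neither did any of the 17637 genes tested (0%, with 296 at an unadjusted p under 0.05), nor any without replicate 5 (0%). Srrm4, called in WT but not in KO mice, had an interaction of -0.13 on the log2 scale (95% CI -0.43 to 0.16), and Nova2 one of -0.06 (-0.24 to 0.11). The widest interval was that of Elavl2, -0.09 (-0.52 to 0.34), which narrowed to -0.25 to 0.09 without replicate 5. The age changes of the regulators were thus not shown to differ between KO and WT brains, within these bounds.

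Ratios of paralogs within a mouse do not depend on how that mouse was scaled. Transcript GC content differed between paralogs, at 56.3% in Nova2 and 38.5% in Nova1, and 53.7% in Ptbp1 and 43.1% in Ptbp2. The ratios were not corrected for GC content, and its part in them was not tested. They are ratios of counts not divided by length, so they compare groups and do not give the relative abundance of the paralogs. Per kilobase of merged exons the P21 WT levels were 281 for Ptbp2 and 199 for Ptbp1. The ratio of Ptbp2 to Ptbp1 was 2.74 ± 0.18 (SD, n = 5) in P21 WT mice and 2.17 ± 0.36 in P70 WT mice, and every P70 mouse lay below every P21 mouse. In KO mice it was 2.60 ± 0.31 at P21 and 2.10 ± 0.44 at P70. Nova2 to Nova1 was 1.12 ± 0.08 at P21 and 1.48 ± 0.24 at P70 in WT mice, without overlap, and 1.19 ± 0.09 and 1.41 ± 0.29 in KO mice. The exact two-sided permutation p of both WT changes was 0.00794, the smallest that 5 against 5 mice can give. After adjustment over the 16 ratios and comparisons it was 0.0635, so none of the 16 passed the threshold. Even complete separation of the groups could not pass by itself here, because at this smallest p the adjusted value depends on the other tests. The adjusted p in KO mice was 0.254 for Ptbp2 to Ptbp1 and 0.540 for Nova2 to Nova1.

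The replicate 5 mice held the extreme ratios at P70, 1.58 and 1.32 for Ptbp2 to Ptbp1 and 1.82 and 1.87 for Nova2 to Nova1 in WT and KO mice. Without them the WT folds of P70 over P21 were 0.845 in place of 0.784 and 1.23 in place of 1.303, the groups still did not overlap, and the exact permutation p-values were 0.0159 and 0.00794. Rbfox1 to Rbfox3 was 0.78 ± 0.04 in P21 WT and 0.77 ± 0.04 in P21 KO mice, and Rbfox2 to Rbfox3 was 1.14 ± 0.09 and 1.12 ± 0.06. With all mice neither Rbfox ratio passed the threshold with age or genotype (adjusted p = 0.925 to 0.944). Without replicate 5, Rbfox2 to Rbfox3 was higher in all 4 P70 KO mice than in all 5 P21 KO mice, a fold of 1.18 (exact permutation p = 0.0159, adjusted p = 0.0635) against 1.05 with all mice (exact permutation p = 0.770). It was then also higher in all 4 P70 KO than in all 4 P70 WT mice, a fold of 1.07 (exact permutation p = 0.0286, the smallest that 4 against 4 mice can give; adjusted p = 0.0857), and neither difference passed the threshold after adjustment.

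**Figure D5:**
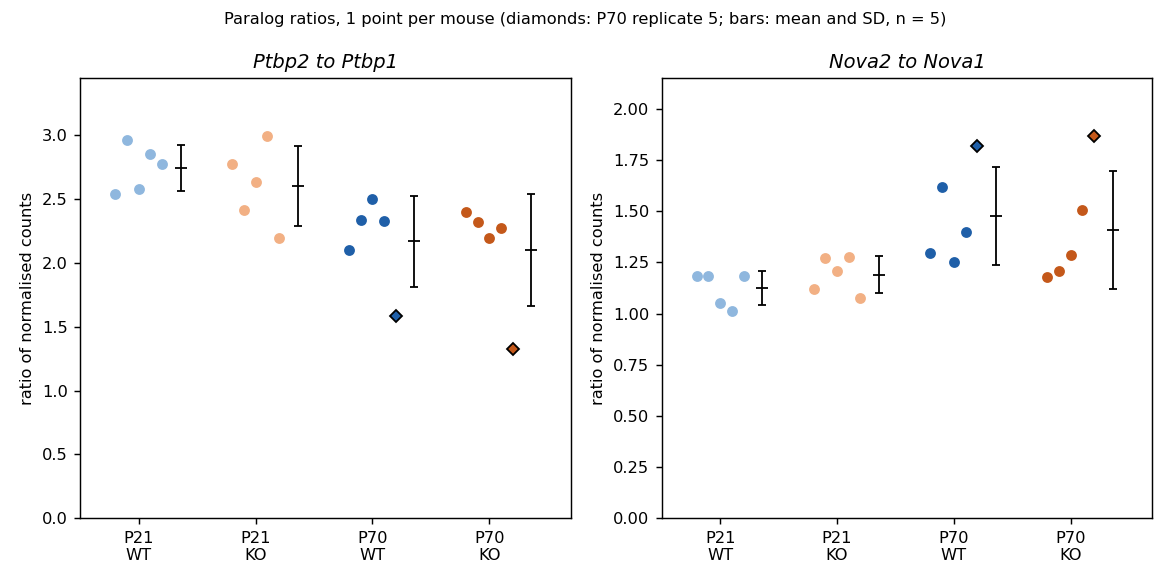
Ratio of normalised counts (y axis, linear from 0) of Ptbp2 to Ptbp1 (left) and of Nova2 to Nova1 (right) in the 4 groups, 1 point per mouse, with the mean and SD of 5 mice beside each group. The P70 WT mice lie below the P21 WT mice for the Ptbp ratio and above them for the Nova ratio, and the P70 replicate 5 mice (diamonds) are the most extreme of their groups.

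Among the other listed regulators of neuronal splicing (25 genes, 24 of them above the filter on low values), 1 of 24 was called higher with age in WT mice and 2 in KO mice, none lower, where 4.62% and 3.78% of all genes were called higher. Elavl1, the ubiquitous relative of Elavl2, rose from 1352 ± 42.5 to 1851 ± 119 in WT mice (log2 change 0.45, SE 0.06, limma adjusted p = 0.000847) and by 0.36 in KO mice (SE 0.08, adjusted p = 0.0112). Khdrbs3, a STAR-family splicing factor, rose by 0.27 in KO mice (SE 0.06, adjusted p = 0.0112), and in WT mice its change was 0.18 (adjusted p = 0.135). Without replicate 5, 8 of 24 were called higher in WT mice, among them Ptbp3, Mbnl1 and Mbnl2, and 7 in KO mice, with none lower, against 8.89% and 10.6% of all genes. With the GC and length correction 5 of 24 were called higher in each genotype (8.94% and 9.66% of all genes), and Elavl4, a neuronal relative of Elavl2, was called lower in both. Its corrected change was -0.17 (limma adjusted p = 0.0345) in WT and -0.12 (adjusted p = 0.0423) in KO mice, and its uncorrected change was -0.23 (adjusted p = 0.186) and -0.19 (adjusted p = 0.420). The median uncorrected change of the list was 0.06 in WT and 0.08 in KO mice.

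Among 17 genes whose exons are known targets of these proteins, 2 were called higher and 1 lower in WT mice, and 1 higher and 2 lower in KO mice, where 9.32% and 8.32% of all genes were called in either direction. Mapt, which encodes tau, rose by 0.28 (SE 0.06, limma adjusted p = 0.00751) in WT and 0.24 (SE 0.05, adjusted p = 0.0178) in KO mice. Glra2, a glycine receptor subunit, was 576 ± 53.2 at P21 and 406 ± 54.4 at P70 in WT mice, a log2 change of -0.51 (SE 0.11, adjusted p = 0.0100), and changed by -0.48 (SE 0.13, adjusted p = 0.0375) in KO mice. Nrxn3, a presynaptic adhesion protein, rose by 0.28 in WT mice (SE 0.07, adjusted p = 0.0320), and Gphn, the gephyrin scaffold of inhibitory synapses, fell by 0.39 on the log2 scale in KO mice (SE 0.08, adjusted p = 0.0126). Leaving out 1 mouse lost the WT call of Nrxn3 for any mouse but the replicate 5 mice (adjusted p up to 0.0752), the KO call of Glra2 for any mouse but P70 replicates 1, 2 and 5 (up to 0.0876) and the KO call of Mapt for P21 replicates 1 and 2 and P70 replicate 4 (up to 0.0556). These are amounts of whole genes and not of exons. Of 17 general splicing factors none was called with age with all mice (medians 0.06 and 0.05), and without replicate 5 there were 2 called higher in WT mice (Srsf3 and Srsf10) and 4 in KO mice (Srsf3, Srsf7, Srsf10 and Snrpb), against 8.89% and 10.6% of all genes.

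By genotype no gene of these 3 lists passed the threshold at either age, and the interaction gave no call. The median log2 difference at P21 was -0.020 for the other regulators, -0.015 for the target genes and -0.037 for the general factors. Over all genes it was 0.004. At P70 the medians were -0.015, -0.035 and -0.019, against -0.005 over all genes. These medians were not tested. The smallest p in each direction at P21 belonged to Gphn (0.17, 95% CI 0.00 to 0.33, unadjusted p = 0.0448) and Dab1 (-0.07) among the target genes, to Elavl1 (0.08) and Hnrnpll (-0.08) among the other regulators and to U2af1 (0.04) and Srsf10 (-0.09) among the general factors, each with a limma adjusted p of 1.0. At P70 these were Rest (0.09) and Ank3 (-0.11), Raver1 (0.06) and Pcbp2 (-0.04), and Snrpb (0.07) and Srsf4 (-0.05), again with adjusted p = 1.0.

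For each regulator the gene tested whose log2 values were most like its own, after subtracting group means, was found by Pearson's r over the 20 mice. The nearest genes included Lmbrd2 for Rbfox1 (0.99), Usp33 for Ptbp2 (0.98), Fam168b for Rbfox2 (0.98), 1700086L19Rik for Celf4 (0.96), Ggps1 for Nova1 (0.96), Ago3 for Srrm4 (0.95), Zc3h3 for Rbfox3 (0.94), Larp1 for Nova2 (0.80) and Tgtp2 for Ptbp1 (0.78). These likenesses share the replicate 5 libraries: over the 18 mice without them the nearest gene stayed the same for 2 of 10 members, Ago3 for Srrm4 (0.94) and Tgtp2 for Ptbp1 (0.83). Among the 45 pairs of regulators r was positive in 30 pairs over 20 mice (median 0.38, range -0.82 to 0.96) and in 37 pairs over 18 mice (median 0.40, range -0.22 to 0.86).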

How the data were processed

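Poly(A) RNA of 1 whole brain per mouse was sequenced as paired-end libraries (TruSeq). Per the labels and the study's methods, the authors quantified transcripts with Salmon 1.1.0 against GRCm38, correcting for GC bias, summed them per gene through tximport and scaled them with DESeq2, for which the submitters' processing notes name version 1.26.0 under R 3.6.2. The deposited values are these normalised counts, a signal that need not be whole numbers. Depth was therefore not given and was estimated from the step size of low values. Gene symbols were matched for 19447 of 19463 identifiers.

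Genes with a mean of at least 10 in the mice of a fit were kept, values were analysed as log2(value + 1), and limma 3.58.1 (R 4.3.3, lmFit and eBayes with trend) was fitted to the 2 groups of each comparison, or to all 20 mice for the interaction. The pseudocount of 1 slightly understates changes of low genes. P-values were adjusted by the Benjamini-Hochberg method over all genes tested, with a threshold of 0.05. Ratios of paralogs were tested by exact two-sided permutation of mice (Python 3.11.15, numpy 2.4.6), adjusted over 16 tests. Spearman's rho was computed with scipy 1.17.1. Intervals cover 95%. The fit was tested on simulated data with independent noise for each gene. Such data lack the shift that genes share in the P70 replicate 5 mice, so that test does not cover it. P-values reflect the spread between the mice as labelled, whose litters are not given.

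The members and gene lists were chosen with earlier results of these data known. Named genes were the members, Katnal2, the genes of each other list with the smallest p (up to 2 in each direction among those called with age, 1 in each direction by genotype) and the gene most correlated with each member, of which 1 is not reported here. Other genes named in counts of 5 or fewer, or listed as called without replicate 5, were named after their values were seen. Alternatives covered the pseudocount, filter, trend, quantile normalisation, replicate block, all mice in 1 fit, each mouse left out and both P70 replicate 5 mice left out, and a GC and length correction was added after seeing the data. Transcript models were GENCODE M21, and promoter sequences RefSeq on GRCm38.p6.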

Additional observations from a re-analysis of the deposited data

Results flagged for a closer look

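In 16 of the 60 groups of 5 mice examined (40 of single regulators and the rest of ratios or Katnal2), the highest or lowest mouse was separated from the nearest other mouse by more than 0.71 of the group's range, which chance alone gives in about 1 group in 20. Of these, 14 came from the P70 replicate 5 mice. Low values of these mice were found for Rbfox1 (3946.6 in WT, 3374.8 in KO), Ptbp2 (1760.2 and 1535.9), Celf4 (10694.0 and 10180.3) and Elavl2 (1234.4 and 1127.9), and a high one for Rbfox3 in WT (8587.8). The same mice had low ratios of Rbfox1 to Rbfox3 (0.46 in WT, 0.388 in KO) and of Rbfox2 to Rbfox3 (0.833 and 0.753), and the KO mouse a low ratio of Ptbp2 to Ptbp1 (1.32).

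The remaining 2 values were at P21: Rbfox1 was low in WT replicate 3 (5033.5) and Nova2 high in KO replicate 4 (2713.9).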

How the results depend on the processing

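No regulator was called by genotype or by interaction under any alternative run. With age, 2 regulators were called in WT mice with all mice, 1 with no trend, 4 with the GC and length correction and 5 without P70 replicate 5, and 1 to 5 when each mouse was left out. In KO mice 1 was called, 0 with no trend, 3 with the correction and 4 without P70 replicate 5, and 0 to 4 when each mouse was left out. Over all genes, the 1643 WT calls became 3001 with the correction, 3000 without replicate 5 and 912 to 3000 with each mouse left out, and the 1467 KO calls 3106, 3759 and 896 to 3759. The single genes called by genotype were 1 at P21 with the correction or with a mouse left out and 1 at P70 without both replicate 5 mice. The causes were not tested.

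Same-numbered mice were not taken as pairs. The labels give no shared litter or batch, and no comparison had every pair's correlation of deviations over 0.1. These ran from 0.01 to 0.26 (KO and WT at P21), 0.06 to 0.71 (P70), -0.11 to 0.15 (ages in WT) and -0.12 to 0.15 (ages in KO). A mouse correlated best with its own number in 3, 4, 2 and 1 of 5 pairs. Whether same-numbered mice shared a litter or batch could not be checked. With the replicate number as a block, 2 regulators were called with age in WT mice and 0 in KO mice (Nova2 adjusted p = 0.0737), none by genotype; the interval of the P70 genotype difference narrowed for Elavl2 to between -0.23 and 0.0045 (adjusted p = 1.0) and for Rbfox1 to between -0.20 and 0.017; over all genes the calls were 1265 in WT mice and 913 in KO mice. Exact sign-flip tests of the ratios over such pairs cannot give a p under 0.0625 with 5 pairs. They could therefore not pass the threshold and do not bear on the ratios.

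Differences that changed sign were all uncalled. With the correction, with or without the block, they were Rbfox3 (-0.020) and Elavl2 (0.0028) at P21, Rbfox2 (0.017) and Ptbp1 (-0.0019) at P70, and Rbfox1 with age in WT (0.048). Without replicate 5 they were Rbfox2 (0.020) and Ptbp1 (-0.00645) at P70, Rbfox1 (0.11), Nova1 (0.00041) and Elavl2 (0.024) with age in WT and Rbfox1 with age in KO (0.062). With each mouse left out the differences at P21 ran from -0.038 to 0.041 for Rbfox1, -0.076 to 0.021 for Rbfox2, -0.013 to 0.025 for Rbfox3, -0.021 to 0.051 for Nova2, -0.0048 to 0.071 for Ptbp1, -0.022 to 0.013 for Celf4, -0.053 to 0.014 for Elavl2 and -0.0018 to 0.085 for U2af1.
At P70 they ran from -0.21 to 0.056 for Rbfox1, -0.080 to 0.091 for Rbfox2, -0.043 to 0.15 for Nova1, -0.015 to 0.026 for Ptbp1, -0.155 to 0.083 for Ptbp2, -0.13 to 0.026 for Srrm4, -0.054 to 0.082 for Celf4, -0.26 to 0.039 for Elavl2, -0.245 to 0.0093 for Ank3 and -0.046 to 0.16 for Snrpb. With age they ran from -0.045 to 0.11 for Rbfox1, -0.11 to 0.00041 for Nova1 and -0.17 to 0.024 for Elavl2 in WT mice, and from -0.14 to 0.062 for Rbfox1 and -0.051 to 0.13 for Nova1 in KO mice.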
